A study of Mus musculus with 2 samples.

Results

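The cytosolic ribosomal protein genes encode the proteins that fold with ribosomal RNA into the large (60S) and small (40S) subunits of the ribosome. They were taken by symbol, as Rpl or Rps followed by a number together with Rplp0, Rplp1, Rplp2 and Rpsa, leaving out pseudogenes marked -ps and the Rps6k kinases. This gave 86 of the 32285 genes in the files, of which 85 had at least 1 UMI (unique molecular identifier, a counted transcript). Of the 86, 46 encode large subunit proteins, 31 encode small subunit proteins, and 9 have symbols that mark a paralogue or a binding protein (Rpl3l, Rpl7l1, Rpl10l, Rpl22l1, Rpl36al, Rpl39l, Rps27l, Rps27rt and Rps19bp1). The 77 genes of the first 2 kinds are called core members below. The members lay on 19 chromosomes, with 14 on chromosome 7 and 4 on the X chromosome (Rpl10, Rpl36a, Rpl39 and Rps4x), and all 86 were annotated as protein coding.

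The libraries were made from cells sorted as immune cells from tumours of MC38, a mouse colon carcinoma line, at day 21, with droplet-based 3′ single-cell chemistry. Both libraries carried the same labels and formed 1 group of 2 replicates, and no treatment, genotype, strain or mouse age is given in the sources used here. A word in the deposited file names differs between the libraries and is explained nowhere in the labels. The comparisons are therefore between kinds of barcode inside each library, with C1q macrophages as the common reference.

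Ribosomes translate messenger RNA, and their proteins are needed in near-equal amounts, so their genes are among the most strongly and most evenly transcribed in any cell. In growing cells their output rises with that of ribosomal RNA and of the nucleolar factors that assemble the subunits. Vertebrate ribosomal protein messages start with a run of pyrimidines just after the cap, the 5′ terminal oligopyrimidine (TOP) tract, through which mTOR and Larp1 control their translation.

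The 2 libraries held 2749 and 2937 barcodes with 5688000 and 5862342 UMIs and shared 0 barcodes. Barcodes with at least 300 genes and under 10% mitochondrial UMIs, not called doublets, were sorted by marker UMIs into 5 classes that held 2061 barcodes of replicate 1 and 2312 of replicate 2. Barcodes with 0 Ptprc UMIs (the pan-leukocyte antigen CD45) and 0 Tyrobp UMIs (a myeloid and NK signalling adaptor) numbered 807 and 1050. They were meant to hold tumour cells, but 7 epithelial markers summed to 1.44 and 2.43 counts per 1000000 UMIs (CPM) there, with 6 and 2 of the 7 at 0, against 12.5 and 9.35 CPM in C1q macrophages. The label was thus not borne out by those markers and the class is called Ptprc-negative. A list of 4 collagen and fibroblast genes (Col1a1, Col1a2, Col3a1 and Dcn) had none at 0 in it in either library. The list summed to 1295 and 1439 CPM in Ptprc-negative barcodes, against 105 and 72.6 CPM in macrophages. In replicate 1 this was mostly Col3a1 and Dcn (695 and 588 CPM), with Col1a1 and Col1a2 at 9.62 and 1.92 CPM. In replicate 2 Col1a1 and Col1a2 had 211 and 566 CPM, Col3a1 585 CPM and Dcn 77.5 CPM. The part of this list in the results was not tested. The 7 macrophage markers outside the gates summed to 1164 and 221 CPM in Ptprc-negative barcodes, against 17581 and 5662 CPM in macrophages. Cd3 T barcodes numbered 30 and 145, dendritic barcodes 63 and 26, neutrophil barcodes 5 and 14, and C1q macrophage barcodes 1156 and 1077. A list of 9 T cell markers outside the gate summed to 1306 and 1598 CPM in T barcodes, against 196 and 480 CPM in macrophages, and 6 neutrophil markers to 1041 and 1363 CPM in neutrophil barcodes, against 73.6 and 227 CPM. The T barcodes also held 2588 and 1813 CPM of the macrophage list and 7135 and 10292 CPM of the dendritic list, and the part of this in their comparison with macrophages was not tested. The 14 neutrophil barcodes of replicate 2 held 3301 CPM of the macrophage list and 19373 CPM of the dendritic list. This list of 8 dendritic markers (H2-Ab1, H2-Aa, Cd74, Irf8, Batf3, Cst3, Siglech and Fscn1) summed to 36344 and 24663 CPM in dendritic barcodes, against 14816 and 20982 CPM in macrophages, so that replicate 2 separated these classes less. The libraries differed in sex-linked transcripts. Macrophages of replicate 1 had 1355 UMIs of Xist and 0 from Y-linked genes, while those of replicate 2 had 0 of Xist and 185 from Y-linked genes. Ptprc-negative barcodes had 125 UMIs of Xist and 0 from Y-linked genes in replicate 1, and 0 and 113 in replicate 2. Since the library is fitted as a block, the p-values below rest on how much the differences between classes disagreed from one library to the other. That disagreement is taken over 4 classes with 3 residual degrees of freedom. For each gene edgeR also draws the spread toward a trend over all genes tested. A p-value or standard error is thus not a measure of a gene's own agreement between the libraries alone. Within the disagreement, sex, animal and technical sources cannot be told apart.

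Ribosomal protein genes took up a larger share of all UMIs in Ptprc-negative barcodes than in macrophages, in both libraries. Members made up 40.8% of the UMIs of Ptprc-negative barcodes in replicate 1 (exact 95% interval 40.7% to 40.8%, covering counting error only) and 32.4% in replicate 2 (32.4% to 32.5%). In C1q macrophages they made up 26.6% (26.6% to 26.7%) and 22.4% (22.4% to 22.5%). Both Ptprc-negative values lay above both macrophage values, with means of 36.6% ± 5.90 and 24.5% ± 2.97 (SD, n = 2 libraries each). The difference was 14.1 percentage points in replicate 1 and 9.97 in replicate 2, or 1.53 and 1.44 times. With 2 libraries an exact sign-flip test cannot go below p = 0.5, so no p-value was attached to shares. Over all barcodes replicate 1 held 32.5% of UMIs in members and replicate 2 held 28.0%, and replicate 1 was the higher library in each of the 5 classes.

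**Figure D1:**
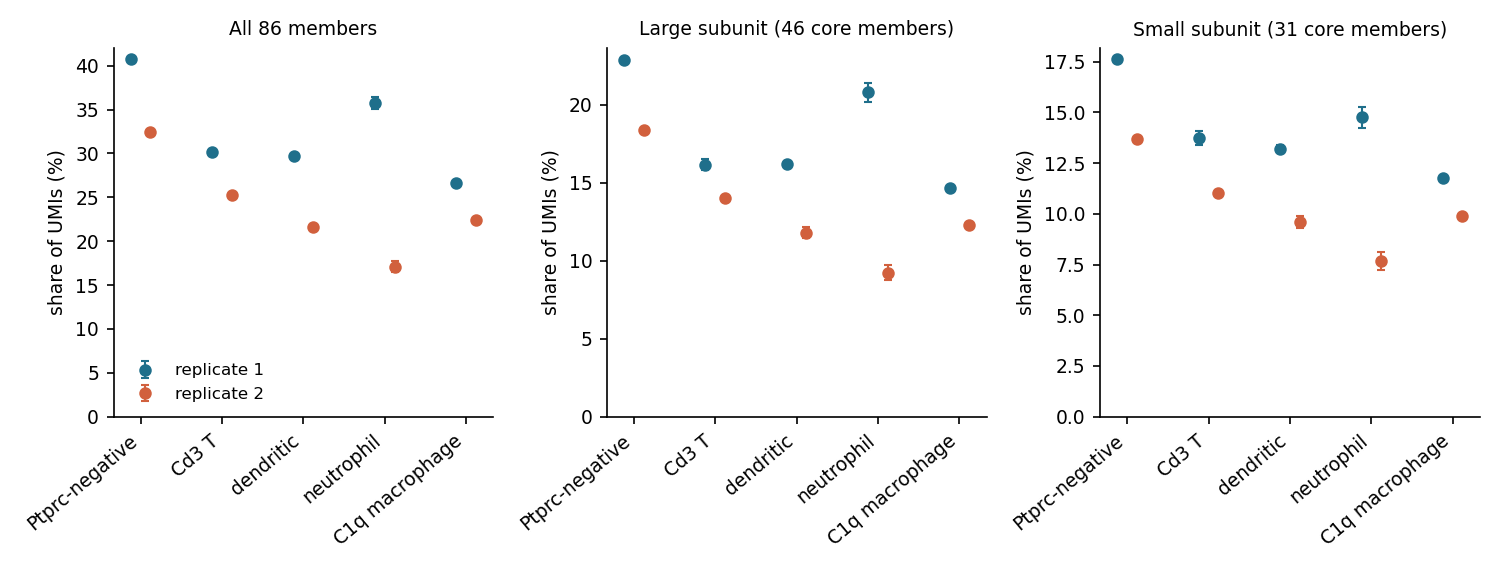
Share of all UMIs (%, y axis) in all 86 members, in the large subunit genes and in the small subunit genes, for each barcode class (x axis) and library (colour); bars are exact 95% binomial intervals, many smaller than the points. Ptprc-negative barcodes have the highest value of each library (40.8% and 32.4% for all members), and C1q macrophages stand at 26.6% and 22.4%. The neutrophil values of 35.7% and 17.1% come from 5 and 14 barcodes. In replicate 1, 1 barcode held 12975 of the 17295 neutrophil UMIs.

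The other classes lay closer to macrophages. Cd3 T barcodes held 30.1% (29.7% to 30.6%) and 25.3% (25.1% to 25.5%) of their UMIs in members, 3.48 and 2.86 points above the macrophages of the same library. Dendritic barcodes held 29.7% (29.5% to 29.9%) and 21.6% (21.2% to 22%), which was 3.08 points above macrophages in replicate 1 and 0.844 points below them in replicate 2 (difference -0.844). Neutrophil barcodes held 35.7% (35.0% to 36.4%) and 17.1% (16.5% to 17.7%), so the libraries differed more from each other than the class did from macrophages. In replicate 1, however, 1 barcode held 12975 of the class's 17295 UMIs and 5442 of its 6178 member UMIs. The median neutrophil barcode gave 25.9% in replicate 1 and 15.5% in replicate 2. With the stricter gates (3 and 11 barcodes) the class held 15.0% and 15.1%. The 5 neutrophil barcodes of replicate 1 also held 1850 CPM of the fibroblast list, against 144 CPM in the 14 of replicate 2, and this class entered no test because it had fewer than 20 barcodes in each library.

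Both subunits took part. Large subunit genes made up 22.9% and 18.4% of UMIs in Ptprc-negative barcodes, against 14.6% and 12.3% in macrophages, and small subunit genes 17.6% and 13.7%, against 11.7% and 9.90%. The ratio of large to small subunit UMIs was 1.30 and 1.34 in Ptprc-negative barcodes and 1.25 and 1.24 in macrophages. The 9 paralogue and binding protein genes together gave 0.265% and 0.361% of UMIs in Ptprc-negative barcodes, against 0.249% and 0.257% in macrophages.

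The share also varied widely inside a class. The median Ptprc-negative barcode gave 39.6% of its UMIs to members in replicate 1 and 32.3% in replicate 2, against 24.9% and 22.1% for the median macrophage. The 10th and 90th percentiles were 19.3% and 48.5% in Ptprc-negative barcodes of replicate 1 and 20.4% and 39.3% in replicate 2, against 17.0% and 33.0%, and 15.5% and 28.2%, in macrophages. A share above 40% was found in 384 Ptprc-negative barcodes of replicate 1 (47.6%) and 84 of replicate 2 (8%), against 17 (1.47%) and 1 (0.0929%) of the macrophages. The low tails overlapped, since 10.9% and 9.52% of Ptprc-negative barcodes and 21.5% and 33.1% of macrophages gave under 20% of their UMIs to members.

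**Figure D2:**
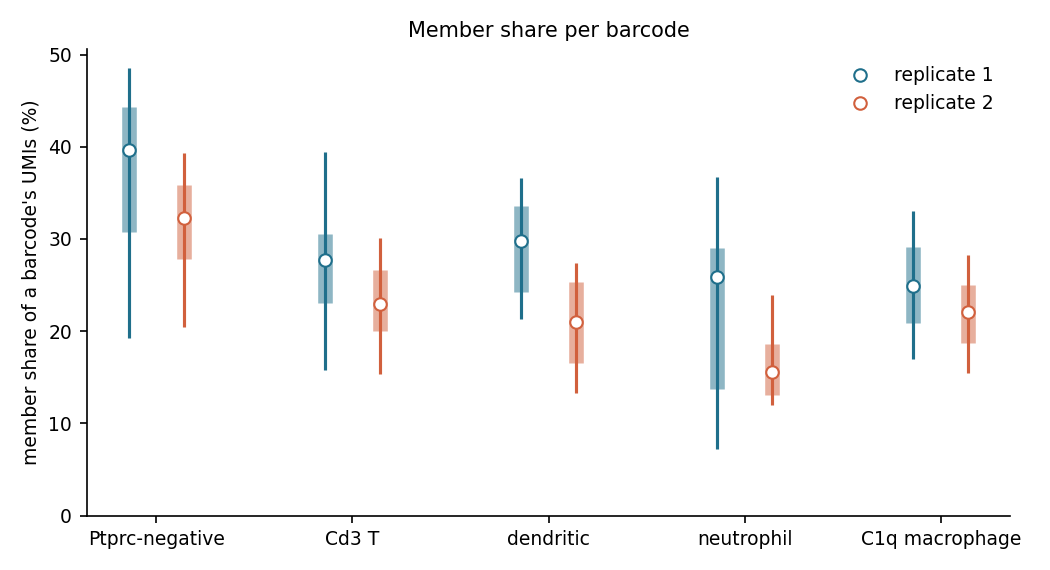
Member share of each barcode's UMIs (%, y axis) by class (x axis) and library (colour); the open point is the median, the box runs over the quartiles and the line from the 10th to the 90th percentile. Ptprc-negative medians of 39.6% and 32.3% lie above macrophage medians of 24.9% and 22.1%, while the lower ends of the lines overlap.

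Member share moved with barcode depth. Among barcodes with under 1000 UMIs it was 28.5% and 26.1% in the Ptprc-negative class, against 22.4% and 20.6% in macrophages. Between 1000 and 2000 UMIs it was 38.7% and 31.8%, against 25% and 22.1%. At 2000 UMIs or more it was 42.7% and 33.0%, against 27.9% and 23.2%, so the class difference had the same sign in each of the 3 depth ranges and in both libraries and was smallest in the shallow one. Across barcodes of a class, Spearman's rho between member share and total UMIs was 0.56 and 0.29 in Ptprc-negative barcodes and 0.28 and 0.17 in macrophages; these points share a library and their UMI total enters both measures. Median mitochondrial shares were 4.0% and 3.57%, against 3.25% and 3.48%. Median depth was 1531 and 1937 UMIs per Ptprc-negative barcode and 1536.5 and 1368 per macrophage, and the part of depth in the class difference was not tested.

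The start regions of members were read for the TOP tract by which this gene family is known. RefSeq promoters (GRCm38.p6) were found for 66 of the 86 members. In a window from 25 bases before to 25 after the annotated start, a run of 8 or more bases that are each C or T was present on the sense strand in 30 of 57 core members (52.6%), in 3 of the 9 paralogue and binding protein genes (33.3%), and in 6014 of 27025 genes overall (22.3%). On the opposite strand such a run was present in 5 of the 57 core members (8.77%) and in 24.4% of all genes. Capitals mark the longest C or T run of each window (in Rps27l the first of 2 runs of equal length). The first group below holds core members with large differences between Ptprc-negative barcodes and macrophages, the second core members with differences near 0, and the third paralogues.
Rpl36a: accgcctataaaCTTCCgttgcggctctag
Rps2: cgagatctcgcgCTTCTTggagcactataa
Rps12: caccgccggCCTTTTCCCCTgccgccgccg
Rps9: aaccgccttgTCTCTCTTTgtctcgggcct
Rpl39: gagtcatccaTCCCCCCCTaagctccgcct
Rps27l: cccgcctccaCTCCTCTCCactcctccccg
Rpl22l1: cgcaagcccgTTCTCTTCCCacggctgcag
Rpl3l: tctgtcatttgaCCTCTggtgcctggtggg
These lie at chrX:134585651-134585680 (plus strand), chr17:24720055-24720084 (plus), chr10:23787181-23787210 (minus), chr7:3704025-3704054 (plus), chrX:37085224-37085253 (minus), chr9:66946054-66946083 (plus), chr3:28805499-28805528 (plus) and chr17:24727823-24727852 (plus), in the order printed. The runs are 5, 6, 11, 9, 9, 9, 10 and 5 bases long. They begin at 9, 4, 8, -6, -21, -22, 1 and 9 relative to the annotated start. The runs of Rpl39 and Rps27l thus lie before that start. A long run was found both in a member with a large difference (Rps12) and in members with little (Rps9, Rpl39, Rpl22l1). Core members with a run of 8 or more had a median log2 fold change of 0.85 (30 genes) and those with a shorter run 0.99 (27 genes) in the comparison that follows. A run is a match of letters near an annotated start and not a mapped transcript end.

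Nearly every ribosomal protein gene was higher in Ptprc-negative barcodes than in C1q macrophages in both libraries, and the genes moved by different amounts. UMIs were summed per class and library and tested with edgeR's quasi-likelihood test with the library as a block, and levels are given as CPM after TMM scaling (edgeR's correction for library composition). Of the 84 members with enough UMIs to be tested, 25 rose and 1 (Rpl3l) fell at a Benjamini-Hochberg adjusted p under 0.05, where 34.8% of all 8831 genes tested passed in either direction, 18.6% higher and 16.1% lower. Rpl3l rested on 1 UMI against 18, pooled over the libraries, and had too few UMIs to be tested with only the 2 classes fitted. Another 58 members did not pass, and 45 of the 84 had an unadjusted p under 0.05. The members' median log2 fold change was 0.95, while that of all genes tested was 0.26, under the TMM scaling; relative to it the members' median was 0.68. With library totals in place of TMM the medians were 0.60 and -0.09, and the members' distance from all genes 0.69. The fold change was above 0 in 81 of 84 members and in 59.7% of all genes.

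Levels of 71 members lay above both macrophage values in both libraries, those of 1 lay below, and those of 12 overlapped. Over all genes tested 40.7% lay above and 27.1% below without overlap. The core members' fold changes ran from -0.02 to 2.09 with standard errors of 0.44 to 0.49, so the order of most neighbours could not be told apart from their error. Across the 77 core members the log2 ratios of replicate 1 and replicate 2 had Pearson's r = 0.56, a description across genes that share libraries and scaling, and 75 were above 0 in both. The number called higher depended on the settings. It ran from 1 of 83 members with thinned barcodes, where 8.16% of all genes were called higher, to 52 of 83 with the stricter gates, where 15.2% were. The stricter gates asked for at least 1000 UMIs in Ptprc-negative barcodes and set no such floor for macrophages. The part of depth in that count was not tested. Over 14 settings, 22 of the 84 members (26.2%) were called higher in 10 or more and 31 (36.9%) in none, against 12% and 79.1% of the 8831 genes. Rpl36a was called in all 14.

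**Figure D3:**
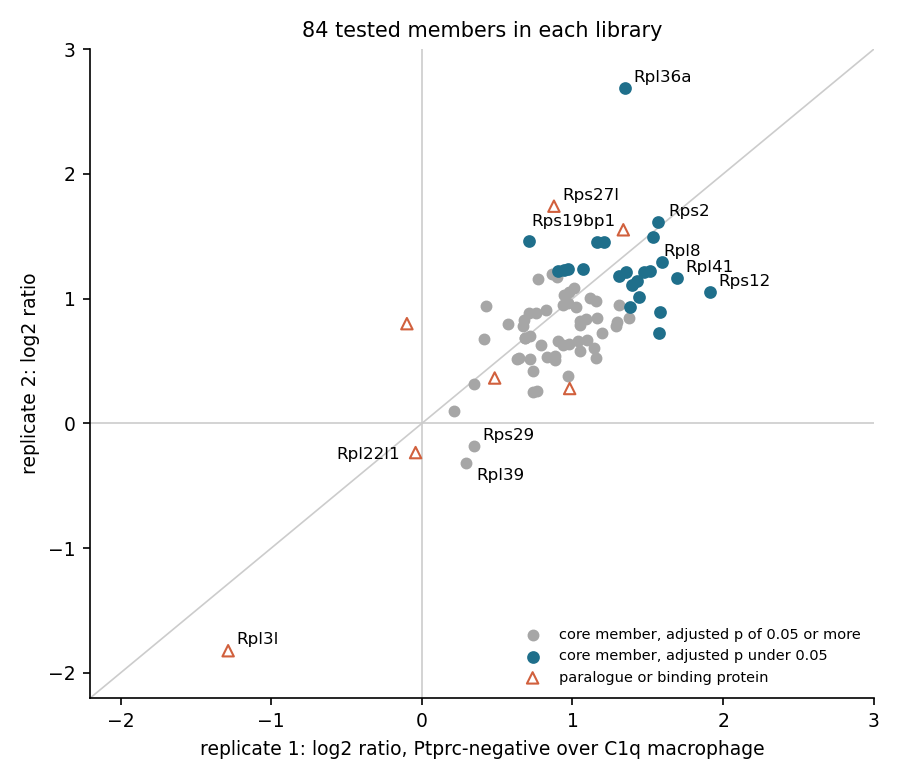
Log2 ratio of Ptprc-negative over C1q macrophage levels in replicate 1 (x axis) and replicate 2 (y axis) for the 84 tested members; filled blue points are core members past edgeR's adjusted p threshold of 0.05, grey points core members that are not, and open triangles paralogues and a binding protein, past the threshold or not. Most core members lie above 0 on both axes, Rpl36a stands highest in replicate 2, and Rps29, Rpl39 and Rpl22l1 lie near 0.

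Among large subunit genes 14 of 46 rose, 0 fell (25 had an unadjusted p under 0.05 by edgeR), and the median log2 fold change was 0.96. Rpl36a, an X-linked gene for a protein near the tRNA exit site, had 4847 and 10201 CPM in Ptprc-negative barcodes, against 1904 and 1578 CPM in macrophages. Both Ptprc-negative values lay above both macrophage values, and replicate 2 was far above replicate 1. The log2 fold change was 2.09 with a standard error of 0.48 (edgeR adjusted p = 0.000105). Rpl8, which encodes uL2 beside the peptidyl transferase centre, had 8551 and 5608 CPM, against 2950 and 1987 CPM in macrophages, or 1.52 ± 0.47 on the log2 scale (SE; edgeR adjusted p = 0.0056). Here the libraries gave nearly the same ratio, 1.53 and 1.5 on the log2 scale.

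Rpl41, whose message encodes a very short basic peptide, had 23566 and 8590 CPM, against 7271 and 3835 CPM, a rise of 1.44 in log2 units (edgeR adjusted p = 0.0118). Its groups did not overlap although replicate 1 was well above replicate 2 in both. The smallest changes among large subunit genes that passed were those of Rpl4, Rpl23a and Rpl12. Rpl4, for a protein that lines the peptide exit tunnel, had 1187 and 1431 CPM in Ptprc-negative barcodes, against 632 and 613 CPM in macrophages (log2 fold change 1.07, edgeR adjusted p = 0.0437). Rpl23a, for a protein at the tunnel exit where signal recognition particle docks, had 1992 and 2313 CPM, against 1034 and 986 CPM (1.09 on the log2 scale, edgeR adjusted p = 0.0445). Rpl12, for a protein at the base of the stalk, had 4513 and 4072 CPM, against 2305 and 1723 CPM (1.11 on the log2 scale, edgeR adjusted p = 0.0460). All 3 had non-overlapping groups and close library values. Over the 14 settings Rpl4 was called higher in 8, and Rpl23a and Rpl12 in 9 each. Among the settings without a call for any of the 3 were unfiltered barcodes, thinned barcodes and no library block.

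The stalk and the laminin receptor gene gave fold changes on either side of the threshold. Rplp0, the stalk's base, had 8479 and 5108 CPM in Ptprc-negative barcodes, against 3225 and 2363 CPM in macrophages (log2 fold change 1.25, SE 0.47, edgeR adjusted p = 0.0257). Rplp1, an acidic stalk protein, had 17173 and 10393 CPM, against 7714 and 5269 CPM (1.06 on the log2 scale, edgeR adjusted p = 0.0716). Rplp2, its partner, had 7989 and 3675 CPM, against 4336 and 2524 CPM (0.71 in log2 units, edgeR adjusted p = 0.239). The groups of Rplp0 and Rplp1 did not overlap, while Rplp2 in Ptprc-negative barcodes of replicate 2 was below macrophages of replicate 1. Rpsa, a small subunit protein first named as a laminin receptor, had 7757 and 5761 CPM, against 3855 and 2720 CPM (1.05 on the log2 scale, edgeR adjusted p = 0.0673), again without overlap.

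Among small subunit genes 9 of 31 rose, 0 fell (17 had an unadjusted p under 0.05 by edgeR), and the median log2 fold change was 0.97, close to that of the large subunit. Rps2, whose protein lies at the mRNA entry channel, had 10451 and 7717 CPM in Ptprc-negative barcodes, against 3526 and 2524 CPM in macrophages, or 1.59 ± 0.47 on the log2 scale (SE; edgeR adjusted p = 0.0038). The ratio was 1.57 in replicate 1 and 1.61 in replicate 2 on the log2 scale. Rps12, a protein of the subunit's beak, had 15657 and 5877 CPM, against 4157 and 2830 CPM, or 1.51 ± 0.48 on the log2 scale (SE; edgeR adjusted p = 0.0068). Its groups did not overlap, but its log2 ratio was 1.91 in replicate 1 and 1.05 in replicate 2. Rps4x, the X-linked gene for eS4, had 5534 and 5336 CPM, against 2390 and 1947 CPM, with close library values and no overlap (1.34 on the log2 scale, SE 0.46, edgeR adjusted p = 0.0144).

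At the other end of the core genes, chosen here after their values were seen, stood Rpl39, Rps29 and Rps9. Rpl39, for a small protein of the exit tunnel, had 8426 and 5453 CPM in Ptprc-negative barcodes, against 6879 and 6802 CPM in macrophages, higher in replicate 1 and lower in replicate 2. Rps29, for a zinc-binding protein of the small subunit head, had 20412 and 10102 CPM, against 16060 and 11438 CPM, with the same disagreement between libraries. Rps9 had 5413 and 4327 CPM, against 4262 and 3471 CPM, and its groups only just did not overlap. Their log2 fold changes were -0.02, 0.08 and 0.33, with edgeR adjusted p of 0.982, 0.917 and 0.619. These lie below or near the median of all genes, 0.26, and a p above the threshold does not show that these genes were alike in both classes.

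The paralogues and the binding protein split. Rps19bp1, for a nucleolar protein that binds Rps19, had 151 and 146 CPM in Ptprc-negative barcodes, against 58.7 and 48.6 CPM in macrophages (log2 fold change 1.47, SE 0.40, edgeR adjusted p = 0.0014). Rps27l, a p53-inducible paralogue of Rps27, had 1232 and 2014 CPM, against 670 and 601 CPM (1.33 on the log2 scale, SE 0.45, edgeR adjusted p = 0.0110). Both were without overlap, and Rps27l, like Rpl36a, was higher in replicate 2. Rpl3l, known in mouse as the striated muscle paralogue of Rpl3, had 0 and 1 UMIs in Ptprc-negative barcodes, against 6 and 12 UMIs in macrophages. Its pooled ratio was 0.0481 (exact 95% interval 0.00115 to 0.305, counting error only), with an edgeR adjusted p of 0.0109. It was detected in single UMIs only, and it had too few UMIs to be tested with the stricter cell filter, with the stricter gates, with thinned barcodes or with only the 2 classes fitted.

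The other paralogues did not pass or were not tested. Rpl22l1, a paralogue of Rpl22 with the long pyrimidine run shown above, had 675 and 526 CPM in Ptprc-negative barcodes, against 695 and 619 CPM in macrophages, slightly lower in each library (-0.14 on the log2 scale, edgeR adjusted p = 0.836). Rpl36al, an autosomal paralogue of Rpl36a, had 1635 and 1307 CPM, against 1169 and 1015 CPM (0.42 on the log2 scale, edgeR adjusted p = 0.491), and its change was not tested against that of Rpl36a. Rps27rt had 210 and 85.8 CPM, against 105 and 70.3 CPM (0.66 on the log2 scale, edgeR adjusted p = 0.197), and Rpl7l1 had 69.9 and 103 CPM, against 75 and 58.4 CPM (0.39 on the log2 scale, edgeR adjusted p = 0.478), with libraries in opposite directions for Rpl7l1. Rpl39l, known in mouse from testis, had 0 and 3 UMIs, against 2 and 4 UMIs, and Rpl10l, another testis paralogue, had 0 UMIs in every class, so neither was tested. Reads from near-identical paralogues and processed copies may be divided between them by the authors' counting, so values of Rps27rt, Rpl36al and their parents are uncertain to that extent.

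Genes outside the symbol rule were read from lists of the same machinery. Of 3 ribosomal fusion and scaffold genes 0 passed (1 had an unadjusted p under 0.05 by edgeR). Fau, which encodes a ubiquitin-like and eS30 fusion, had a log2 fold change of 0.46, and Rack1, a signalling scaffold on the small subunit, 0.99 (edgeR adjusted p = 0.481 and 0.0759). A list of translation factors and other genes with TOP messages, Tpt1 among them, had 7 of 15 genes higher and 0 lower, with a median of 1.04. Eef1g and Eef1d, subunits of the elongation factor 1 exchange complex, rose by 2.16 and 1.59 in log2 units (edgeR adjusted p = 1.46e-05 and 0.00153). Eef1a1, the elongation factor that brings tRNA, had 0.51, Tpt1, a TOP message much used as a reporter of the class, 0.36, and Eef2, the translocase, 0.19, and these 3 did not pass (edgeR adjusted p = 0.412, 0.580 and 0.770).

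Ribosome assembly genes had the largest share past the test of the lists read here, 76%. The list of translation factors and other TOP genes followed at 46.7%, where 18.6% of all genes tested were called higher. The lists were chosen with earlier results of these data known, so this order is a description only. Of 25 tested, 19 rose and 0 fell, with a median log2 fold change of 1.36. Npm1, a nucleolar chaperone of ribosome export, had 1989 and 2169 CPM in Ptprc-negative barcodes, against 646 and 572 CPM in macrophages (1.79 on the log2 scale, edgeR adjusted p = 0.000455). Ncl, nucleolin, had 980 and 866 CPM, against 437 and 279 CPM (1.40 on the log2 scale, edgeR adjusted p = 0.0059). Wdr12, of the complex that processes the large subunit precursor, rose by 2.13 on the log2 scale, and Dkc1, the pseudouridine synthase, by 2.09 (edgeR adjusted p = 3.50e-05 and 1.33e-05). Of 5 tested regulators 1 rose, Eif4ebp1, an mTOR-controlled translation repressor (1.36 on the log2 scale, edgeR adjusted p = 0.00504). Myc, a transcription factor of ribosome genes, had 35.3 and 30.6 CPM, against 19.4 and 16 CPM (0.90 on the log2 scale, edgeR adjusted p = 0.114), and Larp1, the TOP-binding repressor, 0.36 (edgeR adjusted p = 0.517).

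The mitochondrial ribosome, a separate particle whose proteins are also nuclear encoded, had 23 of 78 genes higher and 0 lower, with a median log2 fold change of 0.76. The share past the test was 29.5%, against 29.8% of the cytosolic members. Mrps6 changed most among the 3 with the smallest p, with 225 and 139 CPM in Ptprc-negative barcodes, against 30.7 and 17.1 CPM in macrophages (2.94 on the log2 scale, edgeR adjusted p = 2.61e-10). Of 13 genes encoded by mitochondrial DNA only mt-Nd4l passed (1.04 on the log2 scale, edgeR adjusted p = 0.0418), and the list's median was 0.57. These medians share the scaling shift of 0.26, and whether one list differed from another was not tested.

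**Figure D4:**
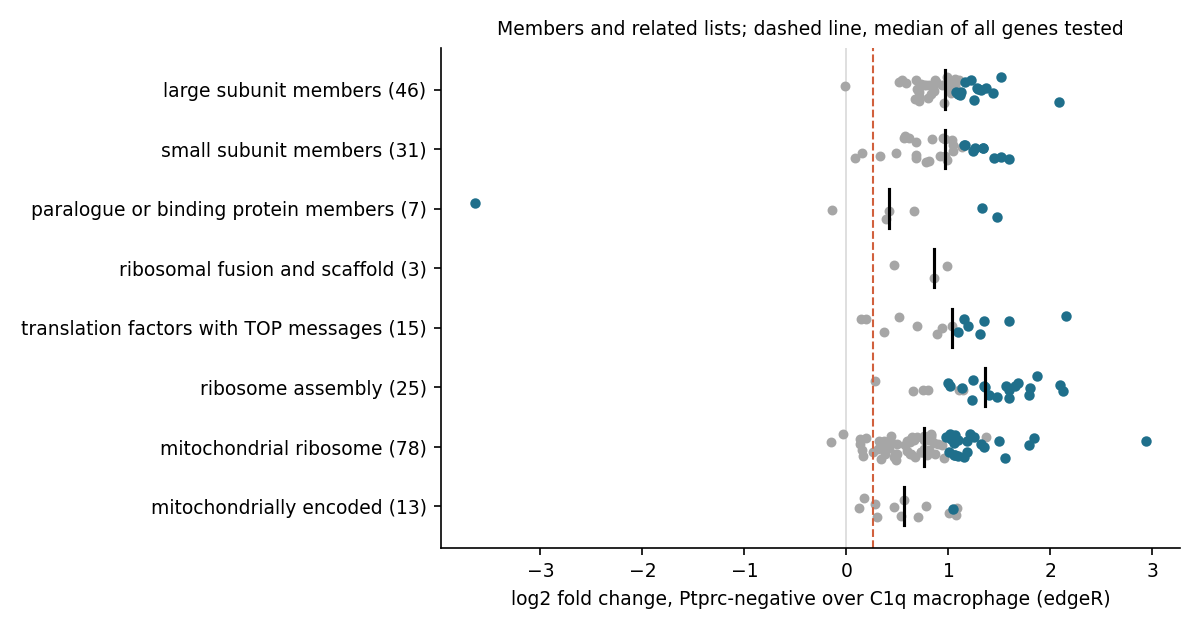
Log2 fold change of Ptprc-negative over C1q macrophage barcodes (x axis) for each gene of the members' groups and of related lists (y axis, number of genes tested in brackets); blue points passed edgeR's adjusted p threshold of 0.05, black bars are list medians and the dashed line is the median of all genes tested, 0.26. Assembly genes have the highest median (1.36), the 2 subunits 0.96 and 0.97, and the point far left is Rpl3l, whose fitted value rests on 1 UMI against 18.

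No member passed in Cd3 T barcodes against macrophages. With edgeR 0 of 84 members had an adjusted p under 0.05, 0 had an unadjusted p under 0.05, and DESeq2 also called 0, where 0.589% of all genes tested passed by edgeR, 0.34% higher and 0.249% lower. The members' median log2 fold change was 0.05 and that of all genes -0.16. Core members ran from -0.26 to 0.39 with standard errors of 0.45 to 0.49, an error too large to show changes of that size. The 4 members with the smallest p were Rpl3l, Rps27l, Rpl5 and Rpl13a. Rps27l had 289 and 570 CPM in T barcodes, against 670 and 601 CPM in macrophages, lower in each library (-0.52 on the log2 scale). Rpl5, a member of the 5S particle, had 1320 and 1186 CPM, against 987 and 929 CPM, and Rpl13a had 3506 and 3019 CPM, against 2708 and 2286 CPM, both higher in each library (0.39 on the log2 scale for each). Rpl3l rested on 1 and 3 UMIs in T barcodes, against 6 and 12 in macrophages, and these 4 had edgeR adjusted p of 0.949 to 0.999.

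Which barcodes were taken as T cells mattered for this class. The stricter gates did not only narrow it. Cd3 barcodes without Ptprc and Tyrobp UMIs passed both the T and the Ptprc-negative gate used here and were left out. The stricter Ptprc-negative gate excluded Cd3 UMIs, so those that also lacked C1q UMIs then counted as T barcodes. Cd3 barcodes with Tyrobp or C1q UMIs were dropped. The class went from 30 and 145 barcodes to 44 and 74. With the stricter gates 44 and 74 T barcodes gave members a share 8.26 points above macrophages, against 3.17 points with the gates used here, and Rpl36a, Rpl8 and Rps2 passed edgeR's test with log2 fold changes of 0.91, 0.73 and 0.70. These 3 of 83 members are 3.61%, where 3.32% of all genes were called higher. Those T barcodes held 755 and 1017 CPM of the fibroblast list, against 46.6 and 170 CPM in the T barcodes used here, and 672 and 1034 CPM of the T cell list, against 1306 and 1598 CPM. Of the macrophage list they held less, 434 and 290 CPM, against 2588 and 1813 CPM in the T barcodes used here. The part in the share of the barcodes taken in and of those dropped was not tested.

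No member passed in dendritic barcodes against macrophages either. With edgeR 0 of 84 had an adjusted p under 0.05, 0 had an unadjusted p under 0.05, and DESeq2 called 0, where 1.14% of all genes tested passed by edgeR, 0.306% higher and 0.838% lower. The median member had a log2 ratio of 0.27 in replicate 1 and -0.69 in replicate 2, with medians over all genes of -0.25 and -0.80. These ratios are after TMM scaling. In raw UMIs of replicate 2 the members' share was 0.962 times that of macrophages. The direction over both libraries depended on the scaling. The members' median log2 fold change was -0.12 with TMM (21 of 84 above 0). With library totals it was 0.08 (58 above 0), and with DESeq2 size factors in edgeR 0.10 (61 above 0). Rpl24 had 2920 and 1007 CPM in dendritic barcodes, against 2971 and 1959 CPM in macrophages, lower in each library (-0.45 in log2 units, edgeR adjusted p = 0.920). Rpl7l1 had 48.9 and 16.2 CPM, against 75 and 58.4 CPM (-0.82 on the log2 scale, edgeR adjusted p = 0.852). Rpl3l was at 21.0 CPM in replicate 1 and 0 in replicate 2, against 2.71 and 6.20 CPM (edgeR adjusted p = 0.835). The dendritic barcodes of replicate 1 had a median of 2456 UMIs and those of replicate 2 1325.5. The part of depth and of the scaling in the libraries' disagreement was not tested.

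Between the libraries, members were mostly lower in replicate 2 than in replicate 1, which is a description with 1 library on each side and no test. This held for 83 of 84 members in macrophages (median log2 ratio of replicate 2 over replicate 1 -0.46), for 75 in Ptprc-negative barcodes (-0.62), for 84 in dendritic barcodes (-1.43) and for 62 in T barcodes (-0.16). The median of all genes was 0.00 in macrophages, 0.02 in Ptprc-negative barcodes, -0.33 in dendritic barcodes and 0.98 in T barcodes. These ratios are after TMM scaling, in which a higher factor lowers the level. The factors of replicates 1 and 2 were 0.845 and 1.62 in dendritic barcodes, and 0.677 and 0.878 in Ptprc-negative barcodes. In raw UMIs the members' share was 29.7% and 21.6% in dendritic barcodes, and 40.8% and 32.4% in Ptprc-negative barcodes. Some members went against the lower levels of replicate 2 in Ptprc-negative barcodes. Rpl36a was 1.07 higher on the log2 scale in replicate 2, Rps27l 0.71 and Rpl10, an X-linked gene for uL16, 0.46, while Rps18 stood at -1.29 and Rpl41 at -1.46. In macrophages Rpl36a stood at -0.27, Rps27l at -0.16 and Rpl10 at -0.30. The higher levels of replicate 2 were thus not seen in that class. In T barcodes they were seen, with Rpl36a at 0.60, Rps27l at 0.98 and Rpl10 at 0.44. In dendritic barcodes these genes stood at -1.09, -0.99 and -1.53. The differences between classes were not tested.

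**Figure D5:**
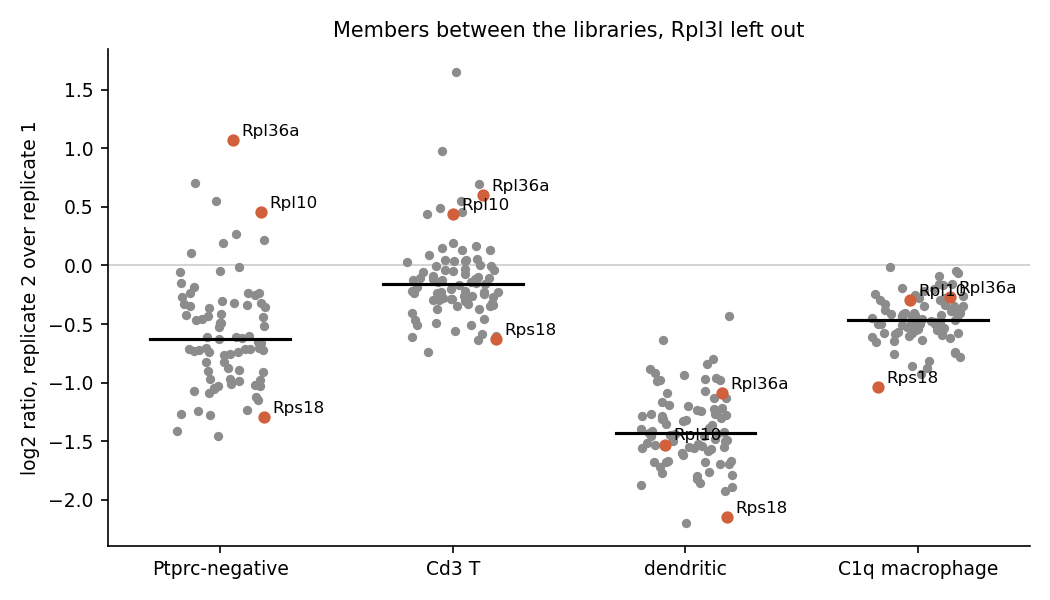
Log2 ratio of replicate 2 over replicate 1 after TMM scaling (y axis) for each tested member except Rpl3l, by barcode class (x axis). Black bars are medians and orange points are the members named. Medians are below 0 in each of the 4 classes (-0.62 in Ptprc-negative barcodes and -0.46 in macrophages), Rpl36a reaches 1.07 in Ptprc-negative barcodes and Rps18 lies in the lower part of each class.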

How the data were processed

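The deposited values are counts (UMIs of 1 gene in 1 barcode) that carry no normalisation, made by Cell Ranger 6.0.1 per the file headers. The submitters' processing notes also name Seurat 4.0.1 and mm10; no source used here gives the annotation. The members and lists were chosen with earlier results of these data known.

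Barcodes with at least 300 genes and under 10% mitochondrial UMIs were kept, and Scrublet (scanpy 1.11.5, seed 0) calls were left out (10 and 36 barcodes, 0.419% and 1.27%), so doublets may remain in replicate 1. Raw UMIs gated Ptprc-negative (0 Ptprc, 0 Tyrobp), C1q macrophage (C1qa, C1qb and C1qc 3 or more, Tyrobp 1 or more), and, at 2 or fewer C1q UMIs, Cd3 T (Cd3d, Cd3e and Cd3g 1 or more), dendritic (Flt3, Zbtb46, Xcr1, Clec9a, Cd209a, Ccr7, Ccl22 and Napsa 2 or more) and neutrophil (S100a8 and S100a9 10 or more) barcodes. Those that passed more than 1 gate (66 and 87) or none (251 and 402) were left out. T cells with 0 Ptprc and 0 Tyrobp UMIs are among those that passed more than 1. The stricter gates added, for Ptprc-negative barcodes, 0 C1q and 0 Cd3 UMIs and at least 1000 UMIs in all. Macrophages then needed 5 or more C1q UMIs and 0 Cd3 UMIs, and T barcodes 0 C1q and 0 Tyrobp UMIs. Dendritic barcodes needed 3 or more gate UMIs and 0 C1q UMIs, and neutrophils 20 or more S100a8 and S100a9 UMIs.

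Sums per class and library were fitted with edgeR 4.0.16 (R 4.3.3; TMM, filterByExpr, 3 residual degrees of freedom, Benjamini-Hochberg over 8831 genes) with the library as a block, since the classes come from the same library; classes needed 20 barcodes in each. DESeq2 1.42.0 was an alternative. Scripts were tested on simulated data. Named members are the 4 highest and 4 lowest fold changes past the test, or the 4 smallest p where none passed, plus the stalk, Rpsa, Rps4x and paralogue genes; others were chosen after their values were seen. A few genes that the rule or the lists name are not reported here.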

Additional observations from a re-analysis of the deposited data

Results flagged for a closer look

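Pseudogene copies of members, which the symbol rule leaves out, were counted in the deposited tables. Over both libraries Rpl10-ps3 had 966 UMIs, 2.71% of the 35704 of Rpl10. Rpl9-ps6 had 571 UMIs, 1.79% of the 31883 of Rpl9, and Rpl36a-ps1 had 360 UMIs, 0.766% of the 47007 of Rpl36a. Each lies above the 3 UMIs taken as the limit of a count of 0, and whether these UMIs came from the copies or from their parents was not tested.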

How the results depend on the processing

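In Ptprc-negative barcodes 26 members were called (25 higher), and 77 of 85 members were above 0 in each of the 14 settings that gave a test. The count was 46 with DESeq2 size factors in edgeR, 47 with DESeq2's Wald test, 45 with library totals, 41 with TMM without members, 44 with the stricter cell filter (500 genes, 5% mitochondrial), 52 with the stricter gates, 13 without a cell filter, 1 (Rpl36a) with barcodes thinned to 500 UMIs, and 4 (Rpl36a, Rps15, Rps19bp1 and, lower, Rpl3l) without the replicate block; the cause was not tested. Of all genes, 10.8% to 20.5% were called higher in these settings, except 8.16% when thinned. The members' share called higher was below that of all genes when thinned (1.2%) and without the block (3.57%, against 11.1%), near it without a cell filter (14.3%, against 13%), and above it in the other settings given here. The T count became 3 with the stricter gates.

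The T share difference (3.17 points) became 2.49 without a cell filter, 4.94 with the stricter filter, 8.26 with the stricter gates, 1.65 thinned and 6.42 with the T gate applied first, an alternative chosen after seeing the data. The stricter gates, like the T gate applied first, took in Cd3 barcodes that lacked Ptprc and Tyrobp UMIs. The dendritic difference (1.12) reversed to -1.17 with the stricter gates, and was -0.844 without replicate 1 and 3.08 without replicate 2. The neutrophil difference (1.86) reversed to -8.74 with the stricter gates and -3.12 thinned, and was -5.36 without replicate 1 and 9.09 without replicate 2.

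Eef2, not called, reversed to -0.056 without a cell filter, -0.10 with the stricter filter, -0.046 with the stricter gates, -0.076 with the T gate first, -0.18 with library totals and -0.072 with only the 2 classes fitted. Larp1 reversed to -0.0037 (library totals), Rpl7l1 to -0.14 (thinned), Rps6kb1 to -0.048 (stricter filter), and in T barcodes Rpl5 to -0.14 (thinned) and Rps27l to 0.30 (stricter gates and T gate first). Calls without 1 replicate could not be counted, with no residual degrees of freedom left. T and dendritic barcodes under the stricter filter, and dendritic ones under the stricter gates, fell under 20 and gave no fit, as did neutrophils in every setting. Depth limits the 30 T barcodes of replicate 1, the 26 dendritic ones of replicate 2 and members of single UMIs such as Rpl3l.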
